A study of Drosophila melanogaster with 7 samples.

Results

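The position of ASH2 inside H3K4me3 peaks was measured in wing imaginal discs of Drosophila melanogaster larvae of the third instar, the epithelial sacs that form the adult wing. An H3K4me3 peak entered when an ASH2 peak overlapped it by 1 bp or more, which held for 5014 of 5868 H3K4me3 peaks and for 5121 of 31582 ASH2 peaks, in 5613 ASH2-H3K4me3 pairs. The lists come from chromatin immunoprecipitation and sequencing, with 1 library for each of ASH2, H3K4me3, H3K27me3, H3K36me3 and RNA polymerase II phosphorylated at serine 2 (Ser2P) or serine 5 (Ser5P), and 1 of input DNA. The labels give no genotype, strain or treatment, and they state that flies were raised on ordinary food. The ASH2 antibody is listed under a catalogue number that its vendor uses for an antibody to the HA tag. The labels mention no fly line with a tagged protein, so ASH2 here means the labelled target. There were no replicates, so no test between libraries was possible. Spread is given as the range over the 5 chromosome arms 2L, 2R, 3L, 3R and X, which are parts of the same libraries.

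ASH2 is a trithorax group protein and a shared subunit of the COMPASS-type enzymes that methylate lysine 4 of histone H3. The trimethylated form, H3K4me3, marks nucleosomes around the start sites of active genes. H3K36me3 is laid down over gene bodies during elongation, so its side relative to an H3K4me3 peak often shows where transcription leads. In the polymerase, Ser5P is typical of the start of a gene and Ser2P of elongation.

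Most marked regions held a single ASH2 peak, and in most of them ASH2 covered at least 50% of the mark. Of the 5014 H3K4me3 peaks, 4451 (88.8%) held 1 ASH2 peak, 528 held 2, 34 held 3 and 1 held 4. The share with 2 or more was 11.2% (95% exact interval 10.4 to 12.1, arms 9.20 to 13.6%). Intervals here and below cover the counting of peaks only, not the spread between libraries. The share with 2 or more depended on how the lists divide a region, being 5.52% after ASH2 peaks within 200 bp were joined and 23.6% after H3K4me3 peaks within 500 bp were joined. No gap in either list was shorter than 41 bp.

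The median H3K4me3 peak had 66.6% of its bases under ASH2 (95% interval 65.3 to 68.1, interquartile range 40.02 to 92.8). If each ASH2 peak had taken every position that overlaps the same H3K4me3 peak equally often, called even placement below, the median would be 48.6%. The deposited value was above even placement on 5 of 5 arms, where it ran from 60.8 to 70.8% against 47.9 to 49.5%. The margin depended on the overlap rule. With at least 50% of the ASH2 peak inside the mark (3774 H3K4me3 peaks), the medians were 65.9% as deposited and 61.9% under even placement. In all, 65.02% of the 5014 H3K4me3 peaks were covered over at least 50% of their length, and 880 (17.6%) were covered entirely. At the other extreme, 193 peaks had under 10% of their bases covered. Covered share fell with H3K4me3 width, with medians of 92.8% in the narrowest of 4 width classes of nearly equal number (1 to 623 bp), 69.6% at 624 to 844 bp, 54.6% at 845 to 1074 bp and 46.2% at 1075 to 4654 bp. The corresponding medians under even placement were 59.0, 49.1, 45.8 and 40.3%. The number of ASH2 peaks went the other way, and the share of H3K4me3 peaks with 2 or more was 3.797, 9.24, 12.6 and 19.2% in the same order.

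ASH2 midpoints lay nearer the centre of the mark than even placement gives. The median distance from the ASH2 midpoint to the H3K4me3 centre was 251 bp (95% interval 243 to 260, interquartile range 103 to 456), against 356.5 bp under even placement. The midpoint fell in the middle 50% of the H3K4me3 peak in 2387 pairs, or 42.5% (41.2 to 43.8, arms 34.8 to 48.5%), against 28.3% under even placement. A further 33.5% lay in the outer parts of the peak, against 28.3%, and 24.0% lay beyond an end, against 43.3%. Deposited midpoints thus exceeded even placement inside the mark and fell below it outside. The distance from the midpoint to the nearest H3K4me3 end had a median of 160 bp, counted as negative for midpoints beyond an end.

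**Figure D1:**
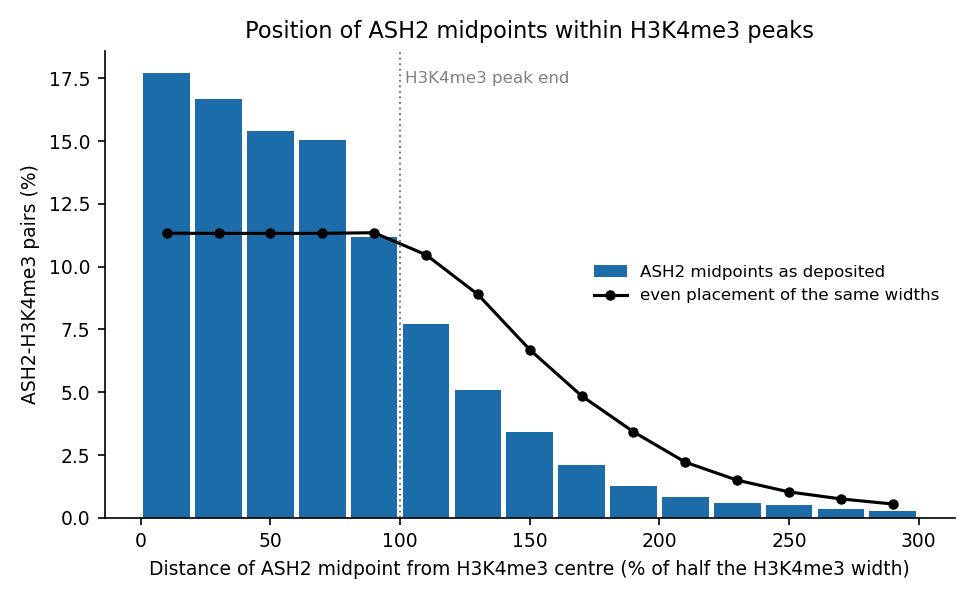
Distance of ASH2 midpoints from the H3K4me3 centre, as a percent of the distance from centre to end (x axis, bins of 20%), for 5613 pairs (bars, percent of pairs), with the share given by even placement of the same widths (black points). The bar at the centre is 17.7% against 11.3%, the last bar before the end is close to its point (11.2 against 11.4%), and the bars lie below the points beyond it; the pairs past 300% are not drawn.

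In 1522 pairs (27.1%) the ASH2 peak lay wholly inside the mark, against 22.2% under even placement. It crossed 1 end in 57.2% of pairs, against 68.7%, and reached past both ends in 15.7%, against 9.07%. The excess wholly inside was present on 4 of 5 arms (23.1 to 29.3% against 20.5 to 23.9%), X being the exception. It was lost in the first 50% of the entries of each arm in each list (what orders them is not stated), where 15.2% lay inside (13.5 to 17.0) against 14.6% under even placement.

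Placement changed with the width of the ASH2 peak. The 265 pairs with an ASH2 peak of 1 to 99 bp were less often central than even placement gives, at 30.2% (24.7 to 36.1) against 47.5%. Of these narrow peaks 64.5% lay in the outer parts of the mark, against 47.5%. From 100 to under 300 bp the central share was 33.5% (29.3 to 37.8) against 38.1%. ASH2 peaks of 300 to under 600 bp were central in 47.8% of pairs (45.5 to 50.1) against 31.7%, and those of 600 bp and more in 42.0% (40.2 to 43.7) against 23.1%. The excess of central midpoints thus lay with ASH2 peaks of 300 bp and more, in 1795 and 3063 pairs, and the narrower ones lay below even placement. Some of these narrower peaks shared their mark with a wider ASH2 peak, and even placement allows positions that the wider peak occupies. Narrow peaks alone in a mark were not separated from those beside another ASH2 peak. The part of ASH2 width itself in their low central share was therefore not tested. By H3K4me3 width, the central share was 48.1, 47.1, 39.2 and 36.8% from the narrowest to the widest class, against 21.3, 27.9, 30.1 and 33.1%. The margin over even placement was smallest in the widest marks, where the interval (34.4 to 39.3) still lay above the even share.

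**Figure D2:**
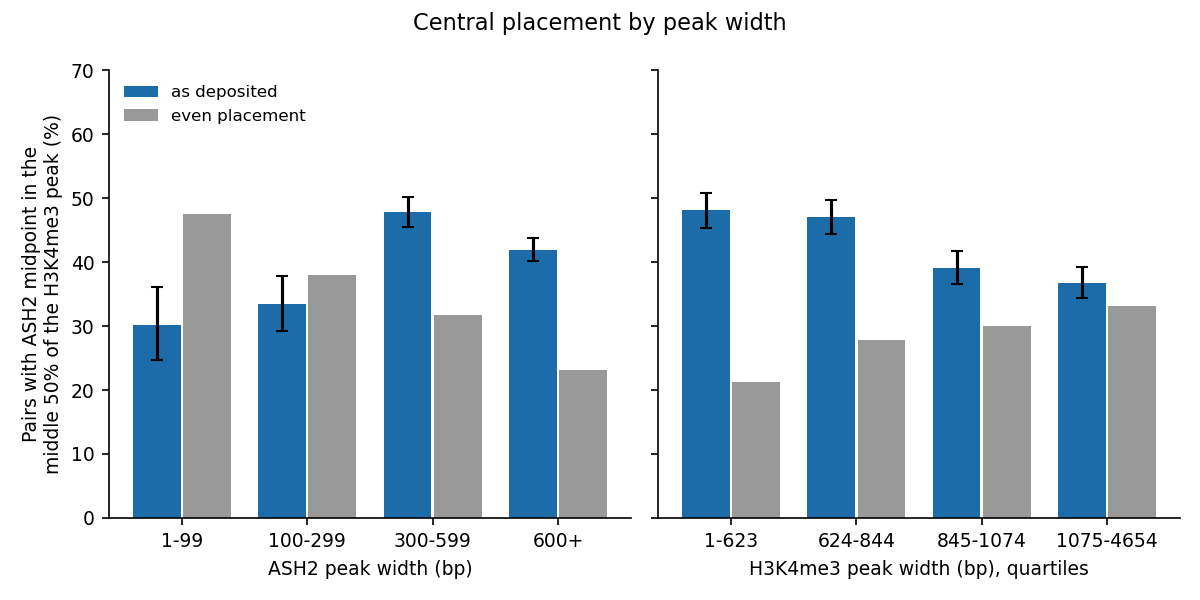
Share of pairs with the ASH2 midpoint in the middle 50% of the H3K4me3 peak (y axis, percent), by ASH2 width (left) and by H3K4me3 width class (right), as deposited (blue, with 95% exact intervals) and under even placement (grey). Blue bars are lower than grey ones for ASH2 peaks under 300 bp and higher for wider ones and in all 4 H3K4me3 width classes.

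A count over all 5868 H3K4me3 peaks, with or without ASH2, does not depend on how pairs are formed. The centre base lay under an ASH2 peak in 56.7% of H3K4me3 peaks (55.5 to 58.0), the first base in 43.0% and the last base in 42.0%. Centre minus the mean of the ends was 14.2 percentage points (13.0 to 15.5), and the centre was higher on 5 of 5 arms. In bp, coverage over all marks was highest 50 bp before the centre, at 56.9%. Scaled to the width of each mark and without orientation, the centre was not a maximum. By coordinate, coverage was nearly level at 57.2% at 25%, 56.7% at 50% and 56.9% at 75% of the width. ASH2 covered the centre and both ends in 1000 peaks, the centre and 1 end in 1656, the centre alone in 673, 1 end alone in 1160 and both ends without the centre in 85. The difference shrank with width, being 23.1 points in the narrowest class, 20.8 and 10.4 in the next ones and 2.60 (-0.101 to 5.30) in the widest, where the interval includes 0. It was 6.49 points in the wider 50% of H3K4me3 peaks and 5.85 points in the first 50% of the entries of each arm in each list. The latter setting also removes ASH2 peaks, and 1648 of its 2933 H3K4me3 peaks held ASH2. Away from the mark, coverage was 13.2% at 5000 bp before and 13.0% at 5000 bp after the centre, and ASH2 peaks take up 8.49% of the length spanned by the lists.

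The offset of ASH2 from the centre had a direction. H3K36me3 lay within 1000 bp of 1 end only at 2715 H3K4me3 peaks. In the 2570 pairs at these peaks, 68.2% of ASH2 midpoints (66.3 to 69.97, arms 66.8 to 71.0%) lay on the side of the centre that faces away from H3K36me3, and 31.8% on the side that faces it. Equal sides would give 50%, and without orientation 48.5% of all midpoints lay on the side of higher coordinate. The median offset was -154.25 bp, negative meaning away from H3K36me3 (-170.5 to -138). The H3K4me3 end facing away from H3K36me3 was under ASH2 at 51.8% of these peaks (49.9 to 53.7) and the end facing it at 27.4% (25.8 to 29.2). ASH2 covered the end facing away but not the other at 1005 peaks, and the reverse held at 344.

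Along the sequence, ASH2 coverage at these peaks was highest 250 bp from the centre on the side away from H3K36me3, at 60.6% (58.7 to 62.4). It was 52.9% at the centre and 35.8% at 250 bp toward H3K36me3. Scaled to width and counted from the end facing away, coverage was 66.6% at 25%, 52.9% at 50% and 41.4% at 75% of the mark. At 500 bp coverage was 46.1% away from and 22.2% toward H3K36me3, and at 1000 bp it was 34.8 and 16.2%. Neighbouring H3K4me3 peaks lie within that distance in many cases, so the same was counted at the 809 such peaks with no other H3K4me3 peak within 2000 bp. There coverage reached 69.1% (65.8 to 72.3) at 250 bp away from H3K36me3, against 32.6% at 250 bp toward it, and 77.0% of midpoints (73.9 to 80.0) lay on the side away from H3K36me3. The interval at isolated marks thus lay above that of the full set, which includes them.

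**Figure D3:**
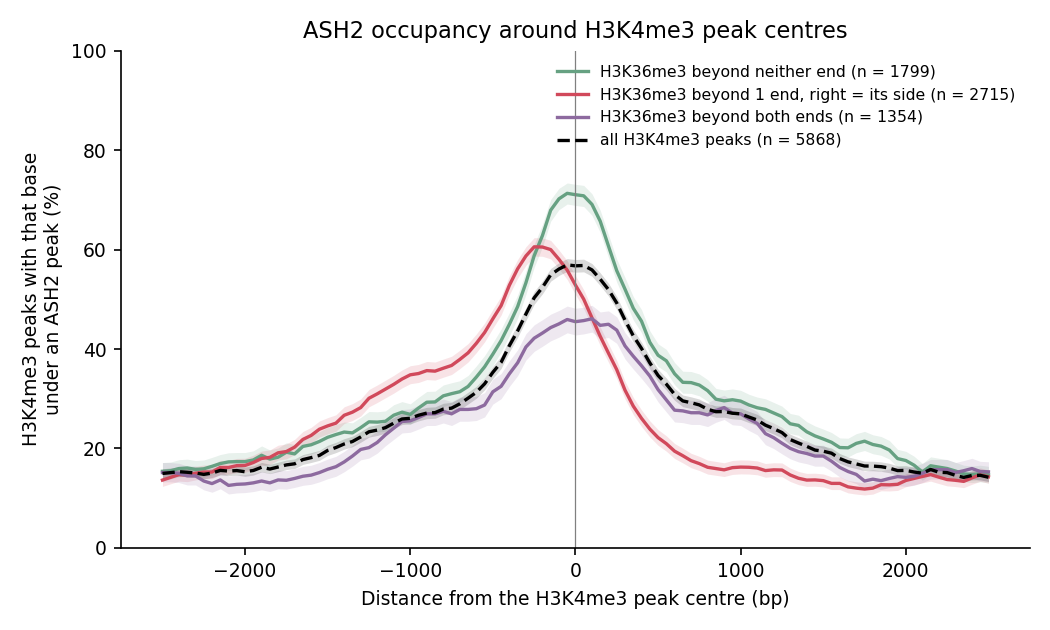
Share of H3K4me3 peaks whose base at each distance from the centre (x axis, bp) lies under an ASH2 peak (y axis, percent; bands are 95% exact intervals), for peaks with H3K36me3 within 1000 bp of neither end, 1 end or both ends, and for all peaks. Peaks with H3K36me3 beyond 1 end are turned so that it lies to the right, and their highest value, 60.6%, stands 250 bp to the left of the centre.

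H3K4me3 peaks with H3K36me3 beyond both ends or neither end could not be given a side. With H3K36me3 beyond neither end (1799 peaks), the centre base was covered at 71.0% (68.9 to 73.1) and the ends at 54.0% on average. With H3K36me3 beyond both ends (1354 peaks), the centre was covered at 45.5% (42.8 to 48.2) and the ends at 32.9%. Median covered share was 86.6% without flanking H3K36me3, 61.1% with it on 1 side and 49.2% with it on both. H3K4me3 width moved with these groups, with medians of 666, 883 and 948.5 bp, and its part in the difference was not tested.

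The distance of the ASH2 midpoint to the H3K4me3 end facing away from H3K36me3 changed little with the width of the mark, apart from the narrowest marks. This was measured where 1 ASH2 peak met 1 H3K4me3 peak and no other (1661 pairs). From the narrowest to the widest class of H3K4me3 peaks, the median distance to the end facing away was 209.5 bp (195.5 to 227.5), 272 bp (251.5 to 295.5), 271.5 bp (248 to 288.5) and 294 bp (255.5 to 329). The median distance to the end facing H3K36me3 was 253.5, 454.75, 673.75 and 984 bp. The 3 wider classes had overlapping intervals for the distance to the end facing away, while the other distance grew in each step. The midpoint was nearer the end facing away in 56.7, 70.5, 80.8 and 82.7% of pairs. All 2570 pairs include marks with several ASH2 peaks and ASH2 peaks that touch several marks. There the share on the side away from H3K36me3 was 54.6% (49.8 to 59.3), 64.9%, 74.2% and 73.2%. By this share no lean was detectable in the narrowest class, since the interval includes 50%. Other measures of that class did lean. The interval of the distance to the end facing H3K36me3 (237 to 276.5 bp) lay above that of the other distance. ASH2 covered only the end facing away at 124 of its peaks and only the end facing H3K36me3 at 85.

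The nearer border of the ASH2 peak showed the same. It lay a median of -19, -2.5, -24 and -33 bp inside the end facing away from H3K36me3, a negative value meaning that ASH2 reached past that end. On the side facing H3K36me3 the bases left without ASH2 had medians of 11, 136, 362.5 and 658.5 bp. Median ASH2 widths were 499, 580.5, 631 and 734 bp over these classes, while H3K4me3 medians were 514, 744, 947 and 1268 bp. The stretch without ASH2 on the H3K36me3 side thus grew with the width of the mark.

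**Figure D4:**
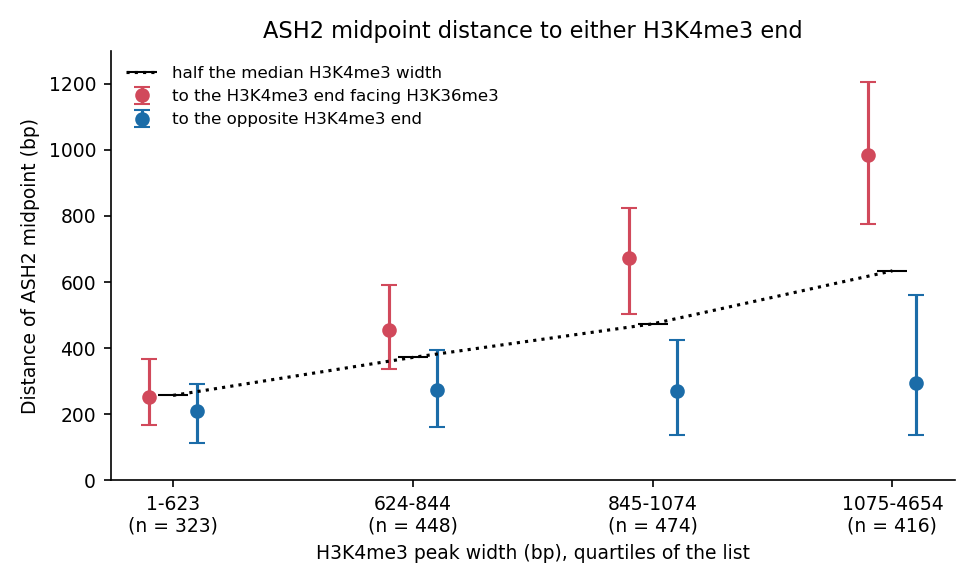
Distance of the ASH2 midpoint (y axis, bp; median and interquartile range) to the H3K4me3 end facing H3K36me3 (red) and to the opposite end (blue), by H3K4me3 width class (x axis), for 1661 pairs of a single ASH2 and a single H3K4me3 peak with H3K36me3 on 1 side. The dotted line is the median distance from H3K4me3 centre to end; blue medians stay between 209.5 and 294 bp while red medians run from 253.5 to 984 bp.

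The lean was present with and without Ser5P over the mark, and with and without Ser2P, each taken alone. Marks without either form were not counted separately. Midpoints lay away from H3K36me3 in 65.2% of pairs (62.2 to 68.1) at H3K4me3 peaks that held Ser5P and in 70.1% (67.8 to 72.4) at those without it. The shares were 76.0% (73.0 to 78.8) with Ser2P and 64.2% (61.9 to 66.5) without it. The intervals overlap narrowly for Ser5P and not for Ser2P. Overlap does not by itself show equal shares, and the difference was not tested. Over all H3K4me3 peaks with ASH2, those with Ser2P were wider, at a median of 1008 bp against 765.5 bp without it, and the part of width was not tested. By ASH2 width, the share was 70.7% for ASH2 peaks of 600 bp and more, 69.1% from 300 to under 600 bp and 61.7% from 100 to under 300 bp. At 1 to 99 bp it was 44.7% (35.7 to 53.9, 123 pairs), so these narrowest peaks had no detectable lean.

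With sides taken from the polymerase, ASH2 leaned slightly away from Ser2P and toward Ser5P. Midpoints lay on the side away from Ser2P in 57.4% of 2029 pairs (55.2 to 59.5) and on the side toward Ser5P in 65.04% of 2108 pairs. Where H3K36me3 lay beyond 1 end and Ser5P beyond the other, 79.7% of midpoints (75.6 to 83.4, 424 pairs) lay away from H3K36me3. Where both lay beyond the same end, 51.4% did (46.5 to 56.3, 418 pairs). Where Ser5P lay beyond neither end, 69.3% did (66.8 to 71.7, 1368 pairs). ASH2 thus leaned away from H3K36me3 also without a flanking Ser5P peak, and had no detectable lean with both on the same side. With sides taken from H3K27me3, 60.4% of midpoints lay toward it and 39.6% (35.4 to 43.8) away, in 546 pairs. The H3K4me3 end facing H3K27me3 was under ASH2 at 51.5% of 565 peaks and the other end at 35.2%. How these sides relate to those of H3K36me3 or Ser5P was not tested.

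H3K4me3 peaks with Ser5P were covered more fully by ASH2. Their median covered share was 79.98% (78.1 to 82.2, 2060 peaks) against 57.1% (55.5 to 58.8, 2954 peaks) without Ser5P, and even placement of their ASH2 peaks would give 52.1 and 45.5%. The ASH2 peaks themselves were wider, at a median of 783 against 561 bp. The median distance from the centre was nearly the same in bp, at 257.75 against 246.5 bp, with overlapping intervals. Even placement would give 407.5 and 325 bp, in marks with median widths of 900 and 810.5 bp. Midpoints were central in 44.9% of pairs with Ser5P (42.8 to 46.9) and in 40.8% without it (39.1 to 42.5). Even placement would give 27.3 and 29.0%. The part of ASH2 and H3K4me3 width in these differences was not tested. With H3K36me3 inside the mark, the covered share was 47.4% (45.8 to 48.9) against 83.4% (81.5 to 85.1) without it. Even placement would give 41.0 and 53.2%. Median ASH2 widths were 624 and 673 bp. The midpoint lay farther from the centre with H3K36me3, at 339.5 against 190.25 bp. These marks were also wider, at 997 against 695 bp, and the part of width in either difference was not tested. With H3K27me3 the covered share was 63.4% (58.5 to 69.99, 385 peaks), against 66.8% (65.5 to 68.4, 4629 peaks) without it, and these intervals overlap.

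Where an H3K4me3 peak held 2 ASH2 peaks, the midpoints were less often central than even placement gives, at 27.2% (24.5 to 30.0) against 34.9%. The median distance from the centre was 382.25 bp, against 349 bp, and 37.7% lay wholly inside, against 41.2%. These values depart from even placement in the opposite direction to the list as a whole, but even placement treats each ASH2 peak alone and allows positions that the other one occupies. In 481 of 528 such peaks (91.1%) the ASH2 midpoints lay on opposite sides, and in 225 (42.6%) the H3K4me3 centre itself fell in the gap between them. Separate peaks in 1 mark tend to fall on opposite sides by geometry, and no even-placement value was computed for that share. ASH2 reached both H3K4me3 ends in 193 peaks (36.6%). The gap had a median of 191 bp (interquartile range 95.75 to 368.5), and 52.1% of the gaps were of at most 200 bp. The wider of the ASH2 peaks had a median of 671 bp and the narrower one 302 bp. At the 241 peaks with H3K36me3 on 1 side, the wider ASH2 peak lay away from H3K36me3 in 66.8% (60.5 to 72.7), and the narrower lay toward it in 63.1% (56.6 to 69.2). Since midpoints mostly lay on opposite sides, these shares largely mirror each other and are not separate results.

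Some ASH2 peaks reached over the gap between H3K4me3 peaks. While 4638 ASH2 peaks touched 1 H3K4me3 peak, 474 touched 2 and 9 touched 3. The 474 were wide, with a median of 1162.5 bp (interquartile range 881 to 1515), against 566 bp for those touching 1. They crossed gaps with a median of 226.5 bp. Their midpoints lay in the gap itself in 45.4% (40.8 to 49.96), against 32.1% for even placement over the same gaps. The median distance to the gap centre was 130 bp, against 204 bp. Of the 1346 pairs with the ASH2 midpoint outside the mark, 710 came from ASH2 peaks that touched 2 or more marks. Pairs of such ASH2 peaks were outside in 72.8% and central in 5.54%, and pairs of ASH2 peaks that touched 1 mark in 13.7 and 50.3%. Reaching another mark by itself takes an ASH2 peak past an end, so these shares are set in part by how the pairs were divided and are not compared with even placement.

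ASH2 in these gaps depended on their length. Of the 361 gaps of at most 200 bp, 62.3% (57.1 to 67.3) had their centre under ASH2, against 55.0% for the centres of the adjoining H3K4me3 peaks, a difference of 7.34 points (1.46 to 13.2). Between 200 and 350 bp the gap centre was covered at 42.0%, against 51.6%, and between 350 and 500 bp at 27.5%, against 52.6%. Over all 1395 gaps of up to 500 bp, 42.7% of gap centres (40.04 to 45.3) and 52.8% of peak centres were covered. With H3K36me3 beyond both outer ends of the H3K4me3 pair (557 gaps), gap and peak centres were covered nearly equally often, at 42.9 and 43.2%, a difference of -0.269 points (-5.31 to 4.78). With H3K36me3 beyond neither outer end (255 gaps), 35.3% of gap centres were covered, against 67.3% of peak centres, a difference of -32.0 points (-38.3 to -25.6). These intervals of the difference do not overlap. Where Ser5P covered the gap centre (113 gaps), ASH2 covered it in 85.8% (78.0 to 91.7), and elsewhere in 38.8% (36.2 to 41.6). The adjoining peak centres were covered in 66.4 and 51.6%. The gaps with Ser5P were also shorter, at a median of 198 against 286.5 bp, and the part of length was not tested.

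**Figure D5:**
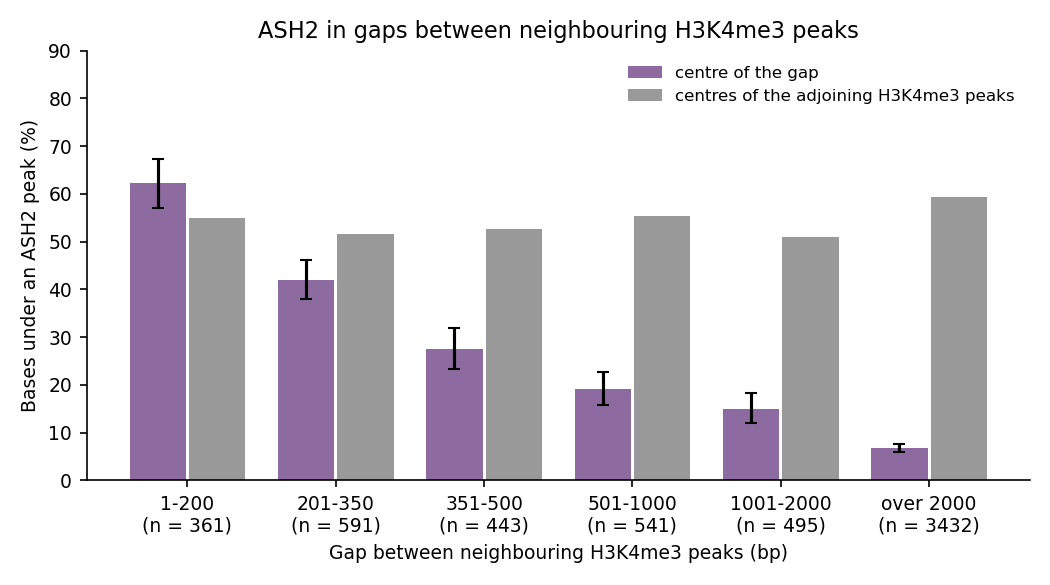
Share of gap centres under ASH2 (purple, with 95% exact intervals) and of the centres of the adjoining H3K4me3 peaks (grey), as percent, by length of the gap between neighbouring H3K4me3 peaks (x axis, bp, with the number of gaps). Gap centres are covered more often than peak centres only up to 200 bp (62.3 against 55.0%), and the share falls to 6.73% past 2000 bp.

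The X chromosome had the least central ASH2. Its central share was 34.8% (31.8 to 37.8) against 28.7% under even placement, and the autosomal arms had 40.5 to 48.5% against 28.1 to 28.5%. Centre minus ends was 5.53 points on X (2.61 to 8.46) and 12.5 to 19.2 points on the other arms. In gaps of up to 500 bp, ASH2 covered 53.0% of gap centres on X, against 46.3% of peak centres (difference 6.68 points, -1.58 to 14.9), while on the 4 autosomal arms gap centres were covered less often, by -7.44 to -17.4 points. The lean away from H3K36me3 on X, 67.9% (63.5 to 72.1), was inside the range of the other arms. H3K4me3 peaks with ASH2 were also wider on X, at a median of 889 bp against 822 to 849 bp, and the part of this width in the difference was not tested.

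Single regions show the arrangements (dm3). The H3K4me3 peak with the most ASH2 peaks, 4, lay on 3R from 17048585 to 17050776 (2192 bp), and ASH2 covered 72.4% of it. Its ASH2 peaks were of 249, 1034, 23 and 382 bp, with the widest 241 bp from the centre, and it had H3K36me3 beyond both ends. The widest peak with 3 of them, on 3L from 15228907 to 15233309 (4403 bp), held ASH2 peaks of 1383, 1090 and 1038 bp, no H3K36me3 and an H3K27me3 overlap. On 2L from 11989020 to 11991983 (2964 bp), ASH2 peaks of 718, 719 and 780 bp lay in a row and covered 74.8%. In all 3 regions ASH2 was broken into pieces along a wide mark.

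The widest mark wholly under a single ASH2 peak lay on 3L from 19555735 to 19558729 (2995 bp). Its ASH2 peak of 3034 bp ran from 19555703 to 19558736, so its midpoint was 12.5 bp from the centre of the mark. The next, on X from 4541930 to 4543933 and with a width of 2004 bp, lay under an ASH2 peak of 2668 bp. After it came a mark of 1958 bp on 2R from 7780786 to 7782743, under an ASH2 peak of 3584 bp. Both ASH2 peaks also touched another H3K4me3 peak. Among the 158 marks with a single ASH2 peak inside and within 25 bp of the centre, the widest lay on 2L from 851835 to 853757 (1923 bp), with an ASH2 peak of 746 bp and 38.8% covered, and had H3K36me3 beyond both ends. In the next widest marks of this kind, the centred ASH2 peaks on 3R from 21301825 to 21303435 (707 bp) and on 2L from 6069058 to 6070643 (1552 bp) covered 43.9 and 97.9%. Of the 1025 marks whose only ASH2 peak was centred outside, the widest lay on 2L from 10733826 to 10736144 (2319 bp). Its ASH2 peak of 475 bp touched 8.24% of it, 1206 bp from the centre and at the end facing away from H3K36me3. The next such marks, on X from 20119997 to 20122274 and from 19374245 to 19376263, were covered over 28.1 and 18.6% by ASH2 peaks that also touched a neighbouring mark.

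The 854 H3K4me3 peaks that no ASH2 peak overlapped had one nearby in many cases. The median distance between the closer end and the nearest ASH2 peak was 445 bp (interquartile range 204.5 to 1236.5), and it was at most 500 bp at 466 peaks (54.6%). At the 208 of those 466 with H3K36me3 beyond 1 end only, that ASH2 peak lay on the side away from H3K36me3 in 73.6% (67.0 to 79.4). Its interval overlaps that of the 68.2% found for overlapping ASH2 midpoints. Marks with a close neighbour were not set apart here, so the nearest ASH2 peak may overlap a neighbouring H3K4me3 peak.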

How the data were processed

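Chromatin of wing discs was immunoprecipitated with an antibody per library, and the authors deposited a peak list for each of 6 targets. Per the readme deposited with the files, each list gives chromosome, start and end, and it holds no read count, height or score of any kind, so the depth behind each peak is unknown. Positions are on dm3, as the submitters' processing notes state. Aligner, caller and threshold were not given in the sources used here. Starts were raised by 1 bp so that positions count from 1. Entries with equal start and end (306 for ASH2, 2 for H3K4me3) were kept as 1 bp.

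Groups were assigned by the antibody each label names. ASH2 and H3K4me3 peaks were paired when they overlapped by 1 bp or more. Even placement was computed by formula, with no resampling and no p value: for each pair, every position at which the ASH2 peak would overlap the same H3K4me3 peak counted equally, and several ASH2 peaks in an H3K4me3 peak were treated separately. The formulas were tested on simulated placements. Intervals are exact (Clopper-Pearson) for shares, from order statistics for medians and by normal approximation for differences of base shares, all at 95%. They cover the counting of peaks only, and they are too narrow where pairs share an H3K4me3 peak. A side was given to an H3K4me3 peak when H3K36me3 lay within 1000 bp of 1 end only. Regions were named by rule, 3 each: most ASH2 peaks, widest wholly covered, widest with a single ASH2 peak inside and within 25 bp of the centre, and widest with a single ASH2 peak whose midpoint lay outside. Comparisons and lists were chosen with earlier results of these data known. No gene is named, since gene positions were at hand only for a release after dm3. Python 3.11.15, numpy 2.4.6, pandas 2.3.3, scipy 1.17.1 and matplotlib 3.10.9 were used. The input library was not analysed here.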

Additional observations from a re-analysis of the deposited data

How the results depend on the processing

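In every setting tried, median coverage and central share stayed above even placement, the median distance from the centre stayed below it, the centre base stayed above the ends, and under 50% of midpoints faced H3K36me3. Depth is unknown and there are no replicates, so only the lists could be varied. With at least 50% of the ASH2 peak inside, 7.82% of H3K4me3 peaks held 2 or more ASH2 peaks, 56.5% of midpoints were central (even placement 50.002%), the median distance was 188.5 bp (204.5 bp) and 37.2% lay wholly inside (35.4%). Median coverage under that rule was 65.9%, against 61.9% under even placement, which gave 48.6% with an overlap of 1 bp or more. That rule cannot apply to single bases. With ASH2 peaks of at least 100 bp, 9.01% held 2 or more and 24.1% of pairs lay wholly inside. With the wider 50% of ASH2 peaks, the values were 7.18% and 21.6%, median coverage was 69.5% and 29.9% of midpoints faced H3K36me3. With ASH2 peaks within 200 bp joined, 5.52% held 2 or more, 39.5% were central, the distance was 273.5 bp and 23.1% lay inside. With H3K4me3 peaks within 500 bp joined, 23.6% held 2 or more, coverage was 61.7%, 49.1% were central, the distance was 302.5 bp, 44.0% lay inside and centre minus ends was 19.1 points. With the wider 50% of H3K4me3 peaks these were 15.9%, 50.2%, 37.9%, 364 bp, 32.2% and 6.49 points, and 26.3% faced H3K36me3. For the joined H3K4me3 peaks, even placement gave 45.4% coverage, 32.7% central, 440 bp and 35.7% inside. For the wider 50% of H3K4me3 peaks it gave 43.5%, 31.7%, 452 bp and 29.8%. Without X, 44.2% were central, the distance was 242.5 bp and centre minus ends was 16.1 points. In the first 50% of entries, 4.85% held 2 or more, coverage was 63.4%, 38.8% were central, the distance was 366 bp, 15.2% lay inside (14.6% under even placement, which is within the interval, so no excess was detectable), centre minus ends was 5.85 points and 26.8% faced H3K36me3. With only the widest ASH2 peak of each mark, 44.4% were central at 236.25 bp, and with only the middle 1 of 3 equal parts called central the share was 28.9% (18.9% under even placement). With H3K36me3 within 500 bp, 26.8% faced it. Settings added after seeing the data were ASH2 peaks that touch 1 mark (50.3% central, 207 bp, a choice that by itself removes positions near a neighbouring mark), marks with no other within 2000 bp (47.1% central, 214.25 bp, 22.8% facing H3K36me3) and entries with equal start and end left out. The other 22 values, the 65.9% coverage above among them, stayed inside the interval of the value reported. That count rests on the deposited values, and even placement could still shift. The cause of each shift was not tested. No paired analysis was possible because each target had 1 library.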
